A study of Mus musculus with 10 samples.

Results

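The genes described here are 9 that serve B cell identity and the B cell receptor: *Cd79a*, *Cd79b*, *Ms4a1*, *Cd22*, *Cr2*, *Blk*, *Blnk*, *Pax5* and *Pou2af1*. They are a list of symbols, and all 9 were found among the 770 gene probes of a NanoString mouse PanCancer Immune panel. NanoString counts single mRNA molecules with barcoded probes and without amplification, from 100 ng of total tumor RNA. The series holds 10 tumors that grew from YUMMER1.7 cells, a mouse melanoma line, and were taken at day 11 after injection. The WT group is 5 tumors from wild-type mice (replicates 2 to 6), and the Siah2 KO group is 5 tumors from Siah2-/- mice (replicates 1, 2, 3, 5 and 6). The deletion is in the host, and the injected cells were the same in both groups. The study's reporting summary describes young male mice on a C57BL/6 background, and no other treatment is given for these tumors. The design text of the series names another melanoma line, another host genotype and day 10, a legend in the paper also gives day 10 for these data, and the labels of the single samples were followed here. Each tumor is a mixture of injected and host cells, in which fewer cells of a type and less RNA per cell cannot be told apart. Neither *Siah2* nor pigment genes were analysed here, so the genotype and the melanoma label were not checked. Nothing in the labels says how far the tumors of a group were separate experiments, and p-values measure the spread between these tumors.

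B cells recognise antigen with a membrane immunoglobulin that cannot signal by itself. *Cd79a* and *Cd79b* encode the Igα and Igβ chains that carry the signal inward, where Src-family kinases such as the product of *Blk* act first and the adaptor encoded by *Blnk* links the kinase *Syk* to calcium release. *Ms4a1* encodes CD20, *Cd22* an inhibitory receptor for sialic acid, and *Cr2* the complement receptor CD21, which lowers the threshold for activation. *Pax5* encodes the factor that commits cells to the B lineage, and *Pou2af1* a coactivator that B cells use with octamer-binding factors. *Blnk* is also expressed in macrophages, so it does not mark B cells alone.

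Most of these genes lay at or near background. The deposited values are normalized counts, scaled in each tumor by a factor to its reference genes. Their low end looks like counts from which a constant background was taken, with a smallest value of 1 or, where it is over 1, the factor of the tumor; no source names these steps. The smallest value in a tumor, its floor, was 1 in WT replicates 2, 3, 4 and 6, 1.32 in WT replicate 5, and 1.11, 1.6, 1.26, 1.48 and 1.03 in Siah2 KO replicates 1, 2, 3, 5 and 6. The highest of the 8 negative control probes, put on the same scale, ranged from 2.31 to 8.92 in WT and from 4.11 to 15.8 in Siah2 KO tumors, and was highest in Siah2 KO replicate 5. Above that limit in all 10 tumors were only *Cd22* and *Blnk*, 22.2% of the members, where 596 of the 770 probes (77.4%) were. *Cd79b* was above it in 7 tumors, *Cr2* in 8 and *Pou2af1* in 1, WT replicate 4. *Cd79a*, *Ms4a1*, *Blk* and *Pax5* were not above it in any tumor, as were 58 probes of the panel (7.53%). Of the 90 values of the members, 29 were at the floor of their tumor and 36 above its highest negative control. The sum of normalized counts before scaling, the depth of a tumor, was between 382885 and 581617 over the 770 probes and was lowest in Siah2 KO replicate 2.

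**Figure D1:**
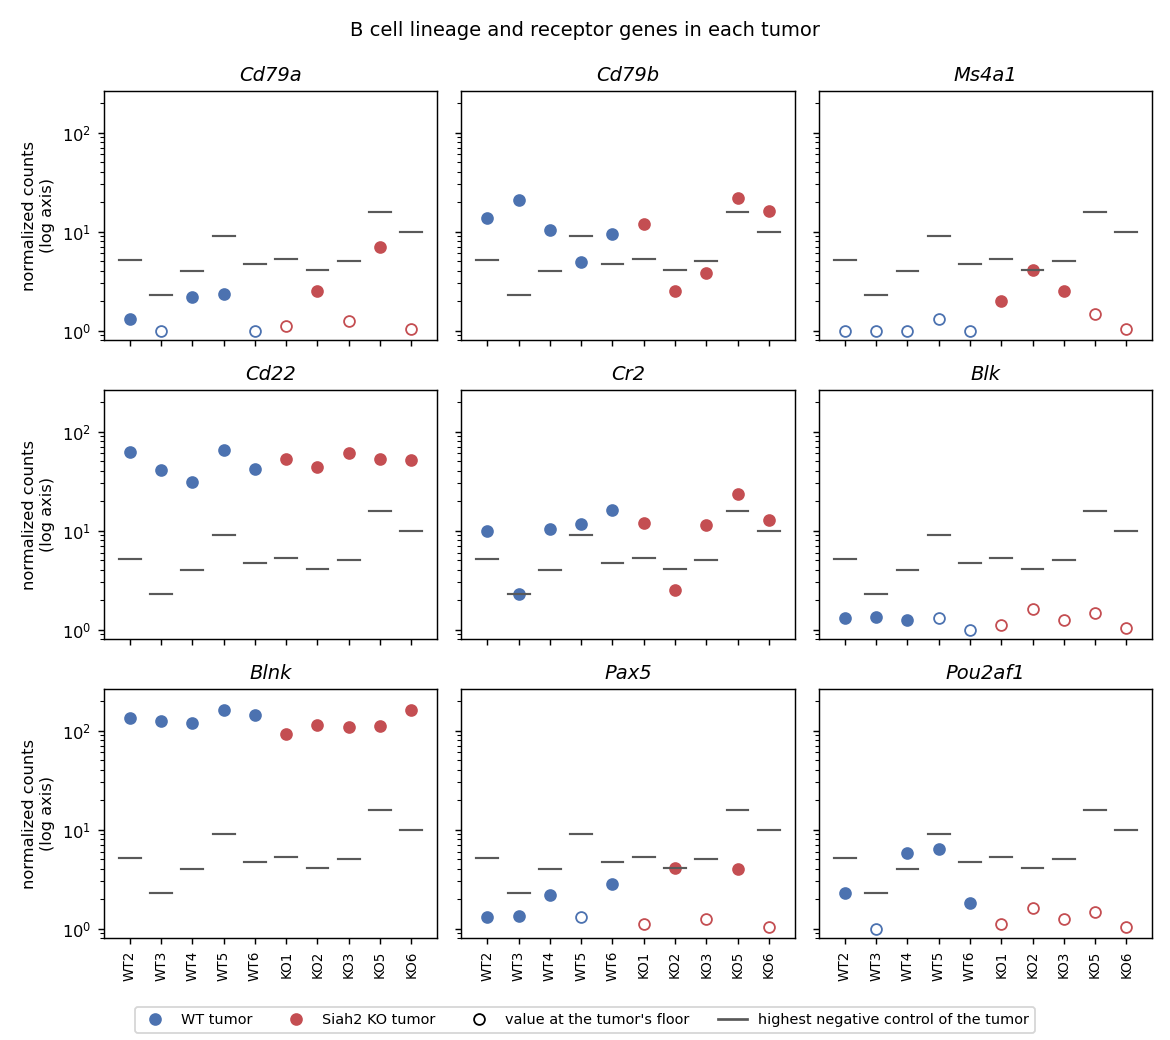
Normalized counts (log axis) of the 9 genes in each tumor, with WT2 to WT6 and KO1 to KO6 naming the replicates of WT and Siah2 KO. Open circles are values at the floor of the tumor and grey bars its highest negative control; *Cd22* and *Blnk* lie above the bars in all 10 tumors, while *Cd79a*, *Ms4a1*, *Blk* and *Pax5* lie at or below them.

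None of the 9 genes differed between the groups at an adjusted p under 0.05 (limma's moderated test on log2(value + 1), Siah2 KO minus WT, adjusted by Benjamini-Hochberg over all 770 probes). The methods' test with equal variances also called 0 after the same adjustment, and at the unadjusted threshold of the methods it called 1, *Ms4a1*, and 379 of the 770 probes. Over the panel 41.0% of the probes were called, 241 of them higher and 75 lower in Siah2 KO tumors. Of the 168 probes with a mean under 20 normalized counts, to which 7 of the 9 genes belong, 10.7% were called. The median log2 fold change was 0.15 over the 9 genes and 0.24 over all probes. At an unadjusted p under 0.05 in limma were 2 of the 9, *Ms4a1* and *Pou2af1*, and 384 of the 770. For all 9 genes the values of the groups overlapped, where the groups did not overlap for 31.6% of the probes of the panel.

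**Figure D2:**
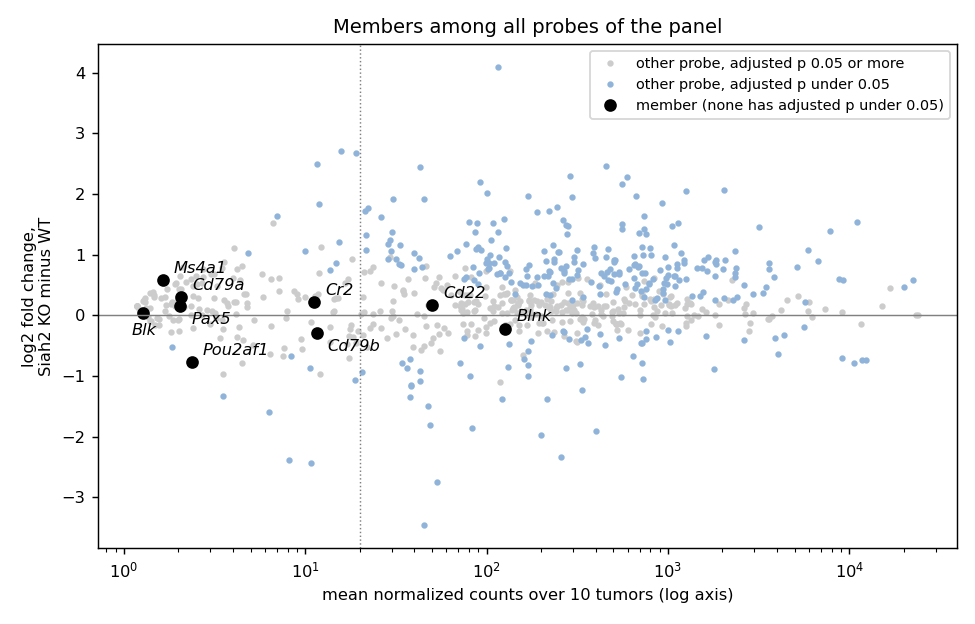
Log2 fold change, Siah2 KO minus WT, against the mean normalized counts over 10 tumors (log axis) for all 770 probes, with the 9 genes in black and probes at an adjusted p under 0.05 in blue. The dotted line is a mean of 20 normalized counts; *Cd22* and *Blnk* are to its right and the other 7 genes to its left.

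Of the receptor signal chains, *Cd79b* was measured above background in most tumors and *Cd79a* in none. The WT tumors held 13.8, 20.8, 10.4, 4.97 and 9.54 normalized counts of *Cd79b* in replicates 2 to 6. The Siah2 KO tumors held 11.99, 2.52, 3.78, 21.8 and 16.0 in replicates 1, 2, 3, 5 and 6. Both the highest and the lowest value were in Siah2 KO tumors, and the WT values lay between them. The log2 fold change was −0.29 (95% confidence interval −1.51 to 0.93, adjusted p = 0.69, limma), and without Siah2 KO replicate 2 it was 0.07. *Cd79a*, which pairs with *Cd79b* in every B cell receptor, had 1.31, 1, 2.18, 2.33 and 1 in WT tumors. It had 1.11, 2.52, 1.26, 6.97 and 1.03 in Siah2 KO tumors. Only Siah2 KO replicate 5 stood out, and its value was below the highest negative control of that tumor. For *Cd79a* the log2 fold change was 0.29 (95% confidence interval −0.53 to 1.11, adjusted p = 0.54, limma), and −0.05 without that replicate.

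Of the surface receptors, *Cd22* was measured well in every tumor. It had 62.6, 41.3, 30.6, 65.7 and 41.4 normalized counts in WT tumors and 53.0, 44.1, 60.6, 52.8 and 51.1 in Siah2 KO tumors. All Siah2 KO values lay inside the WT range. The means were 48.3 ± 15.1 in WT and 52.3 ± 5.87 in Siah2 KO tumors (SD, n = 5 each). Siah2 KO tumors differed by 0.16 on the log2 scale (95% confidence interval −0.29 to 0.61, limma adjusted p = 0.54, exact permutation p = 0.5).

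*Ms4a1* and *Cr2* were dimmer. *Ms4a1* was at the floor in all 5 WT tumors, with values of 1, 1, 1, 1.32 and 1. The Siah2 KO tumors had 2.0, 4.12, 2.51, 1.48 and 1.03, the last 2 of them at the floor. Replicates 1, 2 and 3 of Siah2 KO were thus the only tumors above their floor, and none of them exceeded its highest negative control, which replicate 2 equalled to within 0.1 count. The log2 fold change of *Ms4a1* was 0.57 (95% confidence interval 0.09 to 1.06, unadjusted p = 0.024, adjusted p = 0.056, limma), with an exact two-sided permutation p = 0.016 over the 252 divisions of the tumors, of which the smallest possible is 0.0079. Without Siah2 KO replicate 6 its adjusted p was 0.013. The floor of a tumor equalled its factor where that was over 1, as in all Siah2 KO tumors and WT replicate 5, and 4 of the 5 Siah2 KO values lay above the highest WT value, 1 of them, in replicate 5, as a floor value only. *Cr2* had 9.93, 2.31, 10.4, 11.6 and 16.3 in WT tumors and 11.99, 2.52, 11.4, 23.2 and 12.9 in Siah2 KO tumors. Each group held a single low tumor, WT replicate 3 and Siah2 KO replicate 2, beside values that overlapped. The log2 fold change of *Cr2* was 0.22 (95% confidence interval −1.01 to 1.45, adjusted p = 0.77, limma), and without WT replicate 3 it was −0.18.

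Of the signal genes, the adaptor *Blnk* was measured in every tumor and the kinase *Blk* was not measured above background. *Blnk* had 133, 126, 118, 161 and 144 normalized counts in WT tumors and 93.0, 115, 109, 112 and 162 in Siah2 KO tumors. Of the Siah2 KO tumors 4 lay below the lowest WT tumor, and replicate 6 lay above the highest. The means were 136 ± 16.6 in WT and 118 ± 26.1 in Siah2 KO tumors (SD, n = 5 each). For *Blnk* the log2 fold change was −0.22 (95% confidence interval −0.56 to 0.11, limma adjusted p = 0.26, exact permutation p = 0.18). Without Siah2 KO replicate 6 it was −0.34 (adjusted p = 0.038, limma), and with the tumors scaled to a shared median −0.49 (adjusted p = 0.044, limma). *Blk* reached 1 to 1.33 in WT tumors and 1.03 to 1.6 in Siah2 KO tumors, the latter all at the floor. Its log2 fold change of 0.03 (95% confidence interval −0.18 to 0.24, adjusted p = 0.83, limma) compares floors for the most part and says nothing of a level.

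Stretches before an annotated start of the genes that were measured in all tumors are shown here, because they hold motifs of factors that act in B cells. The 9 genes lie on chromosomes 1 (*Cr2*), 4 (*Pax5*), 7 (*Cd79a* and *Cd22*), 9 (*Pou2af1*), 11 (*Cd79b*), 14 (*Blk*) and 19 (*Ms4a1* and *Blnk*). Promoter sequences were taken from RefSeq (GRCm38.p6), which was matched for 6 of the 9 genes, *Cd79a*, *Cd22*, *Cr2*, *Blnk*, *Pax5* and *Pou2af1*. Each window has 250 bases before and 50 after an annotated start, and only the part before the start is printed, on the minus strand, which is the coding strand of both genes. In *Blnk*, at chr19:40994222-40994471, capitals mark the octamer ATTTGCAT, the motif bound by the factors that the *Pou2af1* product assists. In *Cd22*, at chr7:30879029-30879278, capitals mark CCCNNGGG, a core of the motif of early B cell factor, here 48 bases before the start used for the window. That start lies inside *Cd22*, 1314 bases from the 5′ end of the gene in the same annotation, while that of *Blnk* is the 5′ end itself.
Blnk: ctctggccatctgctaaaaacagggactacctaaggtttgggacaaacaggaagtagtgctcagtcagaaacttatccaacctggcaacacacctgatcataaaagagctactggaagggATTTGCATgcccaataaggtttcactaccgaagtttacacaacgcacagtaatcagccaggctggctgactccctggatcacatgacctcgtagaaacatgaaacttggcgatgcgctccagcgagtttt
Cd22: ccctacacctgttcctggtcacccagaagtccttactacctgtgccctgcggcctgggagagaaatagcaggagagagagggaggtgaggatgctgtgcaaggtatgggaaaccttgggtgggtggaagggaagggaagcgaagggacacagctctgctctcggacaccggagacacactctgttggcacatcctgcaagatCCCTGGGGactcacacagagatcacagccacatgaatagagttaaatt
The octamer began 130 bases before the start of *Blnk*. Both strands were searched over all 32851 windows, of which 1.74% held the octamer and 13.7% held CCCNNGGG, and of the 6 matched genes *Blnk* alone held the former and *Cd22* alone the latter. The motif CAGGTG, an E-box, was in 20.2% of all windows and in those of *Cd79a*, *Cd22*, *Cr2* and *Blnk*. A match of letters is not a binding site, and no binding was measured in these tumors.

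Of the transcription regulators, *Pou2af1* had 2.27, 1, 5.85, 6.29 and 1.83 normalized counts in WT tumors. In Siah2 KO tumors it had 1.11, 1.6, 1.26, 1.48 and 1.03, each the floor of its tumor. WT tumors thus held *Pou2af1* above the floor in all but replicate 3, although WT replicate 4 alone exceeded its highest negative control. The log2 fold change was −0.78 (95% confidence interval −1.53 to −0.02, unadjusted p = 0.045, adjusted p = 0.092, limma), with an exact permutation p = 0.063. Without WT replicate 3 the adjusted p was 0.024. *Pax5* had 1.31, 1.33, 2.18, 1.32 and 2.79 in WT tumors and 1.11, 4.12, 1.26, 4.02 and 1.03 in Siah2 KO tumors. Its highest values, in Siah2 KO replicates 2 and 5, stood beside 3 Siah2 KO values at the floor. The log2 fold change of *Pax5* was 0.15 (95% confidence interval −0.55 to 0.84, adjusted p = 0.73, limma), and it was −0.05 without replicate 2 and −0.04 without replicate 5 of Siah2 KO.

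These differences stood in tumors whose leukocyte genes rose. All 6 leukocyte markers (*Ptprc*, *Cd53*, *Lcp1*, *Itgb2*, *Cd48* and *Selplg*) were higher in Siah2 KO tumors, and their summed level was 4323 to 5306 normalized counts in WT and 6463 to 9810 in Siah2 KO tumors. Of the T cell markers 5 of 6 rose, with sums of 775.6 to 1074 in WT and 1159 to 1998 in Siah2 KO tumors, and all 3 NK cell markers rose, with sums of 395.7 to 562.7 and 722.9 to 1163. The sum of the 9 B cell genes was 181.8 to 255.5 in WT and 176.4 to 247.5 in Siah2 KO tumors. Without *Blnk* and *Cd22* the other 7 summed to 28.8 to 33.5 in WT and 19.0 to 60.4 in Siah2 KO tumors, highest in replicate 5 and lowest in replicate 2. Siah2 KO replicate 5 also had the highest negative control of all tumors, at 15.8 normalized counts. The sums of T and NK cell markers thus did not overlap between the groups, and those of the B cell genes did. Gene by gene, the groups did not overlap for 1 of 6 T cell and 1 of 3 NK cell markers, against 31.6% of the panel. Over the panel 241 of the 770 probes were called higher. *Blnk*, which macrophages also express, and *Cd22* made up most of the sum of the 9, and the other 7 lay near background. These sums therefore cannot tell whether B cells changed in number.

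The 9 genes were also compared relative to leukocyte genes, after the median log2 level of the 6 leukocyte markers of a tumor was taken from each of its values. Relative to it 4 of the 9 were lower in Siah2 KO tumors at an adjusted p under 0.05 (limma), where 51.6% of the 770 probes were lower. The leukocyte median itself did not overlap, at 9.15 to 9.72 on the log2 scale in WT and 9.90 to 10.59 in Siah2 KO tumors. Relative to leukocyte genes *Blnk* lay at −2.38 to −2.08 on the log2 scale in WT tumors and at −3.77 to −2.55 in Siah2 KO tumors. The relative difference of *Blnk* was −1.02 (95% confidence interval −1.48 to −0.55, adjusted p = 0.0022, limma). *Cd22* lay at −4.22 to −3.16 in WT tumors and at −4.84 to −4.20 in Siah2 KO tumors, so that WT replicate 4 lay inside the Siah2 KO range. The relative difference of *Cd22* was −0.63 (95% confidence interval −1.09 to −0.18, adjusted p = 0.021, limma). The other 2, *Blk* at −0.77 and *Pou2af1* at −1.57, were at the floor in all Siah2 KO tumors, and their relative values set the leukocyte median against a floor. The median relative difference was −0.65 over the 9 genes and −0.56 over all probes. Raising all values under 20 to 20, or adding 10 in place of 1 before the log, called all 9 lower, since both settings flatten the dim genes and leave the leukocyte median to move.

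**Figure D3:**
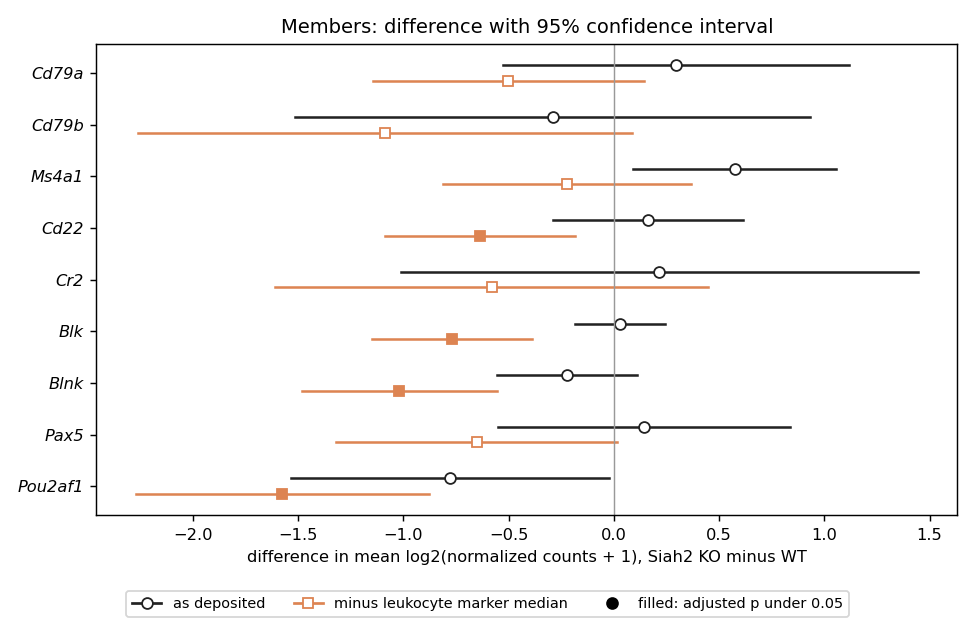
Difference in mean log2(normalized counts + 1), Siah2 KO minus WT, of each gene with its 95% confidence interval, as deposited (circles) and after subtracting the leukocyte marker median (squares). Filled symbols have an adjusted p under 0.05; none of the circles is filled, and the squares of *Cd22*, *Blk*, *Blnk* and *Pou2af1* are.

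**Figure D4:**
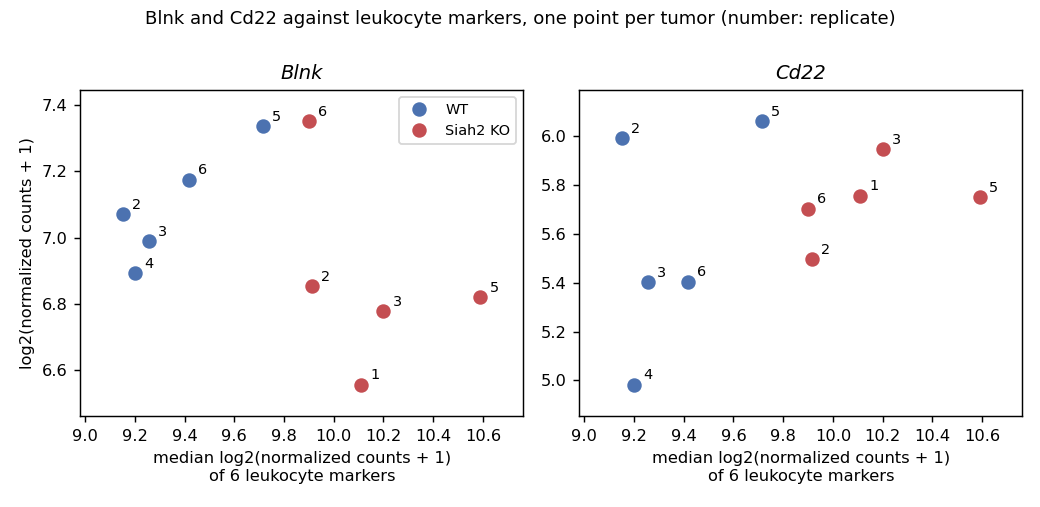
Log2(normalized counts + 1) of *Blnk* and *Cd22* against the median log2 value of the 6 leukocyte markers, a point per tumor labelled with its replicate. The Siah2 KO tumors lie to the right, while the levels of both genes overlap between the groups.

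Of 11 other genes of the B lineage, 2 rose in Siah2 KO tumors, 0 fell and 9 did not pass the test, where 241 of all 770 probes rose and 75 fell. *Cd180*, a receptor related to the Toll-like receptors that macrophages and dendritic cells also carry, was 329.8 to 637 in WT and 665 to 1451 in Siah2 KO tumors, without overlap. It rose by 1.13 on the log2 scale (limma adjusted p = 0.0063). *Pou2f2*, an octamer-binding factor that works with the *Pou2af1* product, was 36.1 to 100.2 in WT and 82.5 to 174 in Siah2 KO tumors. It rose by 1.07 (limma adjusted p = 0.019), with overlap between the groups. Relative to leukocyte genes neither passed, with *Cd180* at 0.34 (adjusted p = 0.12, limma) and *Pou2f2* at 0.27 (adjusted p = 0.45, limma). *Tnfrsf13b* (−0.33, adjusted p = 0.059), *Cd37* (0.01, adjusted p = 0.94) and *H2-Ob* (0.02, adjusted p = 0.96) were above the negative controls in all tumors and did not pass (limma). *Fcer2a*, *Cxcr5*, *Tnfrsf17* and *Rag1* were above them in no tumor. The median log2 fold change of the 11 was 0.08, against 0.24 over all probes.

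Of 9 signal genes that B cells share with other leukocytes, 2 rose and 1 fell, and the median log2 fold change was 0.19. Among all 770 probes 241 were called higher and 75 lower, the median was 0.24, and the groups did not overlap for 31.6%. The kinase genes *Lyn* (0.62, adjusted p = 0.0012) and *Syk* (0.52, adjusted p = 0.0053) rose, and for both of them the groups did not overlap (limma). *Cd81*, a tetraspanin that works with CD21 on B cells and is found on most cell types, fell by 0.37 (adjusted p = 0.0032, limma), from 4148 to 4746 in WT tumors to 3203 to 3595 in Siah2 KO tumors. Relative to leukocyte genes *Lyn* (−0.18, adjusted p = 0.265) and *Syk* (−0.28, adjusted p = 0.14) did not pass (limma). *Cd81* was lower on that scale too (−1.17, adjusted p = 0.00039, limma), where 51.6% of the 770 probes were lower. *Btk*, the kinase that acts after *Syk*, and *Fcgr2b*, the inhibitory Fc receptor, did not pass, at 0.19 (adjusted p = 0.35, limma) and 0.11 (adjusted p = 0.59, limma). All 9 genes exceeded the negative controls in every tumor.

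Of 9 factors that attract or support B cells, 0 passed the test and 0 had an unadjusted p under 0.05 (limma), with a median of 0.06. Of all 770 probes, 384 had such an unadjusted p (limma). *Cxcl13*, the ligand of the follicular receptor encoded by *Cxcr5*, exceeded the negative controls in 1 tumor, and had 3.35 ± 3.40 normalized counts in WT and 3.77 ± 2.56 in Siah2 KO tumors (SD, n = 5 each). *Tnfsf13b*, which encodes the B cell survival factor BAFF, was at 1.13 on the log2 scale (95% confidence interval −0.01 to 2.26, limma adjusted p = 0.10, unadjusted exact permutation p = 0.048). It had 8.24 ± 5.31 normalized counts in WT and 16.3 ± 5.78 in Siah2 KO tumors. It exceeded the negative controls in 7 tumors and was at the floor in WT replicate 6.

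Of 8 regulators of B cell fate that other leukocytes also use, 3 rose and 1 fell, with a median of 0.32. Over the panel 241 of the 770 probes were called higher and 75 lower, with a median of 0.24. The groups did not overlap for 31.6% of the panel. The germinal center factor *Bcl6* (0.50, adjusted p = 0.0077), *Irf8* (0.70, adjusted p = 0.0015) and *Ets1* (0.28, adjusted p = 0.024) rose, and *Mef2c* fell by 0.998 (adjusted p = 0.00098), all without overlap of the groups (limma). Relative to leukocyte genes *Bcl6* (−0.30, adjusted p = 0.19) and *Irf8* (−0.09, adjusted p = 0.55) did not pass (limma). *Ets1* (−0.51, adjusted p = 0.011) and *Mef2c* (−1.79, adjusted p = 9.1e-05) were lower on that scale (limma), as were 51.6% of the 770 probes. The plasma cell regulators *Prdm1* (0.44, adjusted p = 0.075), *Irf4* (0.01, adjusted p = 0.97) and *Xbp1* (0.16, adjusted p = 0.13) did not pass. Of the 9 genes called in these lists, 5 were called, in the same direction, with scaling to the same median, where *Pou2f2*, *Syk*, *Bcl6* and *Ets1* were not, and *Mef2c* alone was called with scaling to the positive controls. *Ets1* was not called when WT replicate 2 or 4 or Siah2 KO replicate 1 or 3 was left out.

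**Figure D5:**
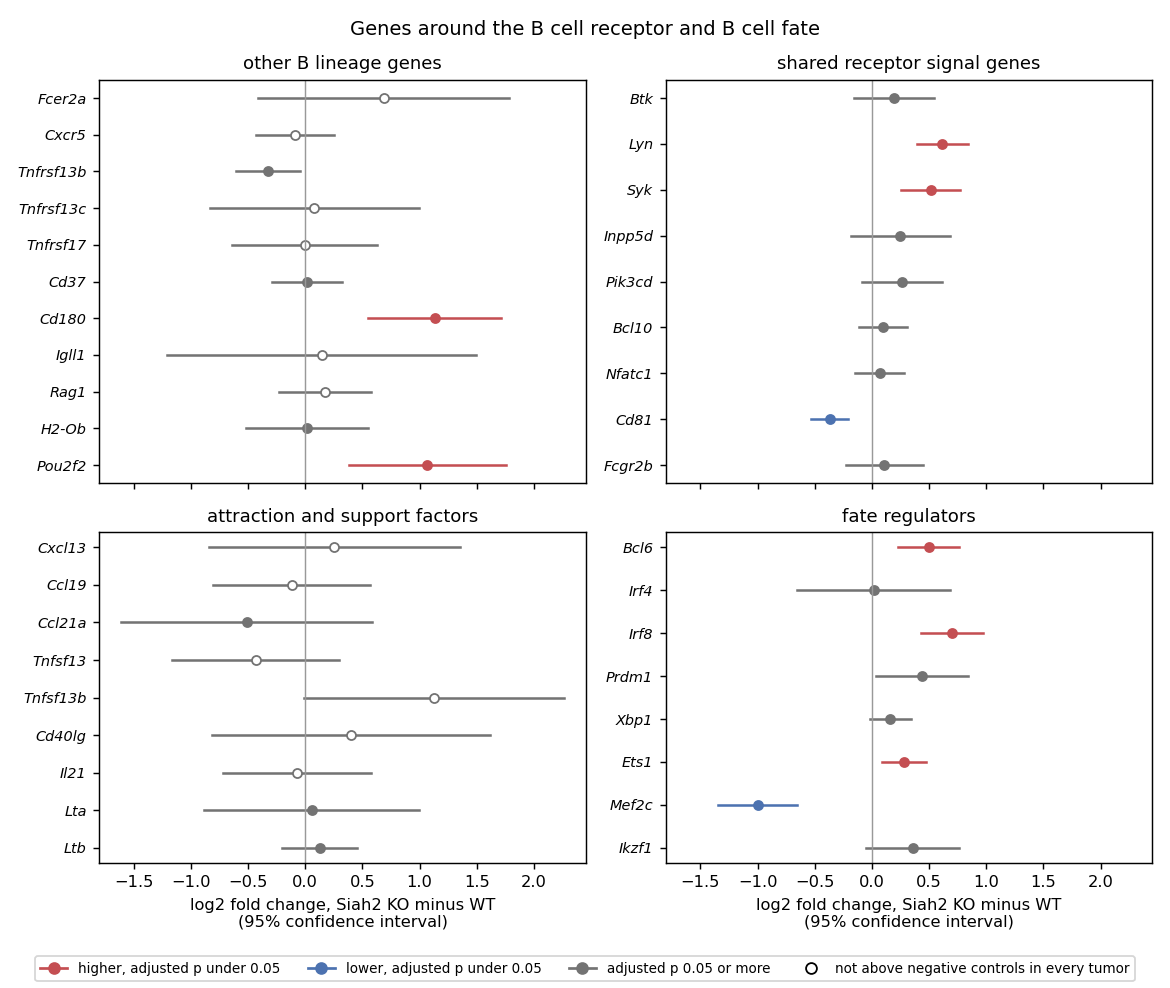
Log2 fold change, Siah2 KO minus WT, with 95% confidence interval for the 37 genes of the 4 lists. Red marks the 7 genes that were higher and blue the 2 that were lower at an adjusted p under 0.05, and open circles are genes that did not exceed the negative controls in every tumor.

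Some markers of other cells also differed between the groups, where 41.0% of the panel was called. Of the macrophage markers *Cd68* and *Msr1* rose, *Mrc1* fell and *Emr1* and *Csf1r* did not pass, with sums of 6315 to 7756 in WT and 6290 to 10210 in Siah2 KO tumors. All 4 fibroblast markers fell, with sums of 16490 to 21340 in WT and 10330 to 12330 in Siah2 KO tumors. Of 4 dendritic cell markers 1, *Itgax*, rose, and of 4 endothelial markers *Pecam1* rose and *Cdh5* fell. The part of these cells in the values of *Blnk*, *Cd180* and the shared genes was not tested.

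Among themselves the 9 genes varied with little order. Over the 36 pairs, the correlation of log2 values centred within each group had a median of 0.04 over the 10 tumors and was above 0 for 20 pairs. *Cd79a* and *Cd79b*, whose products form a single complex, correlated at 0.09. The lowest correlation was that of *Ms4a1* and *Cd79b*, at −0.839, and the highest that of *Cd79a* and *Pax5*, at 0.685, in values mostly at or near the floor. The probes most like the mean of the 9 genes, among 600 with a mean of at least 20, were *Mapk14* (r = 0.85), *Ikzf1* (r = 0.82), *Cxcl12* (r = 0.81), *Emr1* (r = 0.80) and *Ptprc* (r = 0.79), all over the same 10 tumors. Of the 9 genes averaged, 7 had a mean under 20 normalized counts, so values near background enter that mean. These correlations are descriptions and were not tested.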

How the data were processed

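The signal of each probe was deposited by the authors as normalized counts. Per the study's methods it was made with nSolver, with outlying tumors left out by their positive controls and each other tumor scaled by the geometric mean of its 20 reference genes. Up to 150, deposited values rise in equal steps, the tumor's factor, from a constant offset. This held to within 0.1 of a step for 100% of the values checked, and the lowest values, next to the floor, were left out of the check. The offset and the floor look like those of a subtracted background constant, which no source names, so whole reads were not recovered and no count model was fitted. Control probes carry no factor in the deposited table and were multiplied by it here. A value within 0.1 count of the highest negative control was not counted as above it.

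From the 770 probes, 750 endogenous and 20 reference, log2(value + 1) entered limma 3.58.1 (lmFit and eBayes, R 4.3.3) with the genotype as the only term, and two-sided p of Siah2 KO minus WT were adjusted by Benjamini-Hochberg over all 770. Single genes also had a two-sided exact permutation test over 252 divisions. Means and SD are of normalized counts. Low depth and the floor limit precision for the dim genes. Figures were drawn in matplotlib 3.10.9 under Python 3.11.15. The members and lists were chosen with earlier results of these data known. A few genes of the lists are not reported here. All 9 members are named, list genes where an adjusted p was under 0.05 or a count was small, and the 5 probes of at least 20 normalized counts most correlated with the members. Only 2 members reach that mean, so the mean of all 9 was used for it. *Tnfrsf13b*, *Cd37*, *H2-Ob*, *Btk*, *Fcgr2b*, *Cxcl13*, *Tnfsf13b*, *Prdm1*, *Irf4* and *Xbp1* are named outside the rule, chosen with their values in view. Alternatives were scaling to the median, to quantiles or to the 4 brightest of 6 positive controls, a floor of 20, pseudocounts of 10 and 0, a filter at a mean of 20, endogenous probes only, the methods' equal variance test, an intensity trend, a replicate block, T cell markers as reference list and leaving out each tumor.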

Additional observations from a re-analysis of the deposited data

Results flagged for a closer look

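The 9 members and the 9 list genes called gave 36 groups of 5 tumors. In 3 of them a tumor's gap to the nearest other tumor was over 0.71 of the range of the group on the log2 scale. Chance gives about 1 in 20 for values with a normal distribution. That rate does not apply to groups of values at or next to the floor, as for *Ms4a1* and *Blk* here. *Cr2* had 2.31 normalized counts in WT replicate 3, against a median of 11.0 in the other WT tumors. *Ms4a1* had 1.32 in WT replicate 5, which is the floor of that tumor, against 1 in the others, which is theirs. *Blk* had 1 in WT replicate 6, its floor, against a median of 1.31 in the others.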

How the results depend on the processing

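Over the alternatives, 165 of 191 log2 fold changes of the 9 members kept their direction and side of the threshold, and 174 of 198 of the 9 other genes did. A change of 0, as the floor of 20 gave for *Cd79a*, *Ms4a1* and *Blk*, has no direction and was counted as kept. The number of members called was 2 with median scaling (*Blnk*, *Pou2af1*), 1 with quantile normalization (*Blnk*), 1 with no pseudocount (*Ms4a1*), 0 to 2 without each tumor in turn (*Pou2af1* without WT replicate 3, *Ms4a1* and *Blnk* without Siah2 KO replicate 6), and 0 otherwise. Relative to leukocyte genes, 9 were called with the floor of 20 and 9 with the pseudocount of 10, the same 4 with T cell markers as reference, and 4 to 6 without each tumor in turn (6 without WT replicate 5). Over the panel, 95 probes were called with positive control scaling, and 268 to 334 without each tumor in turn. Median scaling moved the median log2 fold change of all probes from 0.24 to −0.01 and called 163 higher and 152 lower; quantile normalization called 153 higher and 181 lower, and positive control scaling 60 and 35. The cause was not tested. The 2 members above background in every tumor were also 2 with a limit of the mean plus 2 SD of the negative controls, a limit chosen after seeing the data.

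Log2 fold changes turned in sign, none of them at an adjusted p under 0.05, as follows. Median scaling gave −0.099 for *Cd22*, −0.023 for *Cr2*, −0.12 for *Blk* and −0.030 for *Pax5*, and quantile normalization −0.049 for *Cd22*, −0.145 for *Cr2*, −0.20 for *Blk*, −0.086 for *Pax5* and −0.089 for *Ets1*. Positive control scaling gave −0.061 for *Blk*, and the floor of 20 gave 0.012 for *Cd79b*. Without each tumor in turn, the log2 fold change was −0.050 to 0.44 for *Cd79a*, below 0 without Siah2 KO replicate 5; −0.60 to 0.074 for *Cd79b*, above 0 without Siah2 KO replicate 2; −0.175 to 0.64 for *Cr2*, below 0 without WT replicate 3 or Siah2 KO replicate 5; −0.017 to 0.072 for *Blk*, below 0 without WT replicate 6 or Siah2 KO replicate 2 or 5; and −0.046 to 0.29 for *Pax5*, below 0 without Siah2 KO replicate 2 or 5.

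With a replicate block over the 8 tumors whose numbers occur in both groups, 235 probes and 0 members were called, against 232 and 0 in the same tumors without it. The correlations of same-numbered tumors were 0.035, 0.050, 0.17 and 0.35. No correlations of differently numbered tumors stand beside them, so whether a shared number marks a pair cannot be told. *Syk* and *Ets1* were not called with the block, and *Pou2f2* and *Ets1* were not called without it.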
